A study of Homo sapiens with 9 samples.

Results

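The genes described here are 10 chaperones and stress-response outputs of the endoplasmic reticulum, chosen by symbol from the 62710 genes of a deposited RNA-seq table: HSPA5, HSP90B1, CALR, PDIA4, SDF2L1, CRELD2, HERPUD1, EDEM1, SEL1L and XBP1. The RNA came from A375R, a line of human melanoma cells with resistance to the BRAF inhibitor PLX4032, which per the study's methods was grown with that drug in the medium. Each of 3 treatments had 3 libraries, 9 in all, which the methods describe as independent biological repeats of this single line. R4VPL3-1, a PROTAC-like molecule built to bring the ubiquitin ligases RNF4 and VHL together, was given at 10 µM for 2 h. VHL-r, the VHL-binding part of that molecule on its own, was given at the same dose for the same time. The control libraries are labelled as wild type and no dose is given for them, and the methods describe them as DMSO-treated cells. The labels name no genetic change that sets the groups apart. The questions asked of the 10 genes were which of them both compounds moved and which R4VPL3-1 moved beyond its VHL-binding part.

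The endoplasmic reticulum folds secreted and membrane proteins. HSPA5 (also called BiP) and its partners hold unfolded chains, and chains that fail to fold are drawn back into the cytosol for the proteasome by ER-associated degradation. When unfolded protein builds up, the sensors IRE1 (encoded by ERN1), PERK (encoded by EIF2AK3) and ATF6 are activated. IRE1 splices XBP1 mRNA into the form that encodes the active factor, ATF6 is cut to release a transcription factor, and PERK phosphorylates eIF2 alpha, which favours translation of ATF4. XBP1 and cleaved ATF6 raise chaperone and degradation genes through promoter sequences called ER stress elements. Values per gene cannot separate the spliced from the unspliced form of XBP1, so its splicing was not measured.

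The ER stress element has an NF-Y part, CCAAT, and a stress part, CCACG, with a gap of 9 bases (ERSE), and ERSE-II has ATTGG and CCACG with a gap of 1 base. Both strands of the 250 bases before the RefSeq start site of each gene (GRCh38.p14) were searched for them, and all 10 members matched a window. ERSE stood in 5 of the 10 members (HSPA5, HSP90B1, XBP1, CRELD2 and CALR) and in 22 of 27305 windows of the same length, or 0.0806%. ERSE-II stood in HERPUD1 and SDF2L1, and in 14 of 27305 windows, or 0.0513%. The members are textbook stress genes from which these elements were partly defined, so these shares describe the genes and test nothing. The promoters of 4 members that moved and 2 that did not are printed 5′ to 3′ along the gene, with both parts of each match in capitals. They are HSPA5 (chr9:125241344-125241593, minus strand), CALR (chr19:12938359-12938608, plus strand), HERPUD1 (chr16:56931892-56932141, plus strand), XBP1 (chr22:28800570-28800819, minus strand), HSP90B1 (chr12:103930160-103930409, plus strand) and SDF2L1 (chr22:21642052-21642301, plus strand).
HSPA5: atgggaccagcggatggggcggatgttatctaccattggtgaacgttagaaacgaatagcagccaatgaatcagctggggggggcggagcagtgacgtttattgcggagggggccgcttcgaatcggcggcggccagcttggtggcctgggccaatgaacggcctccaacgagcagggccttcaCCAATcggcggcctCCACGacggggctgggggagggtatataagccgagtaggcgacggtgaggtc
CALR: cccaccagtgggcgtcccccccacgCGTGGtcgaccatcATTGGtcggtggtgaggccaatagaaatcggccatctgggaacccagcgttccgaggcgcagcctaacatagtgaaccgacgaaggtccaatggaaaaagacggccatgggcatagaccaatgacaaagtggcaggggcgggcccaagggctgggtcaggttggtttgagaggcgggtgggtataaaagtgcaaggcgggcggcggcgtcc
HERPUD1: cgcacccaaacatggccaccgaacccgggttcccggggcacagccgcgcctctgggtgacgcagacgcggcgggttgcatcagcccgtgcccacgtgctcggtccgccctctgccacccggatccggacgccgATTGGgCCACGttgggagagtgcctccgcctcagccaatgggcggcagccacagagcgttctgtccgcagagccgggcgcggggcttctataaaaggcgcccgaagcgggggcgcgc
XBP1: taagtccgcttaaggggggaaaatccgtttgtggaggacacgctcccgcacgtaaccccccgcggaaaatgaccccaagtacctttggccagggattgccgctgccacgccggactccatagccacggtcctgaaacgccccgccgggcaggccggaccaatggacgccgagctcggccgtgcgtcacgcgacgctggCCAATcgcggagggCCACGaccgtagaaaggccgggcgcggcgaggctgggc
HSP90B1: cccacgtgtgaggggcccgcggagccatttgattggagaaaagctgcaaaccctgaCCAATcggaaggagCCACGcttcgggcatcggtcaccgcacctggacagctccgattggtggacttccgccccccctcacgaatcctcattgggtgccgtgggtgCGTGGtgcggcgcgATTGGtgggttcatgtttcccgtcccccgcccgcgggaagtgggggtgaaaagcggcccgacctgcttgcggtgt
SDF2L1: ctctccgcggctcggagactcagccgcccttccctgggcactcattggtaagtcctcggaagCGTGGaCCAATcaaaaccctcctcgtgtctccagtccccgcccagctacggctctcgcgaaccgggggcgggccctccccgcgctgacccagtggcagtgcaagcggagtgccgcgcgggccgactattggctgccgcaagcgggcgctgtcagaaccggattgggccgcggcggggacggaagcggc

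Counted from the start site, the ERSE match lay at -66 to -48 in HSPA5 and at -52 to -34 in XBP1, and that of CRELD2 lay at -80 to -62 on the opposite strand. In CALR it lay farther off, at -225 to -207 on the opposite strand. HSP90B1 held 2 matches, at -194 to -176 and, on the opposite strand, at -89 to -71. The ERSE-II match lay at -117 to -107 in HERPUD1 and at -188 to -178 on the opposite strand in SDF2L1. HERPUD1 was the only member with the ATF4-type element TGATG, any base, AA, at -176 to -169 on the opposite strand, which was found in 3.19% of all windows. Neither the core TGACGTG (1.71% of windows) nor the heat shock element GAA, any 2 bases, TTC (5.85% of windows) was found in any of the 10. PDIA4, EDEM1 and SEL1L held none of the 5 motifs in this window. A match is a description of the letters and no proof of a working site, and a window without one may have sites elsewhere.

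**Figure D1:**
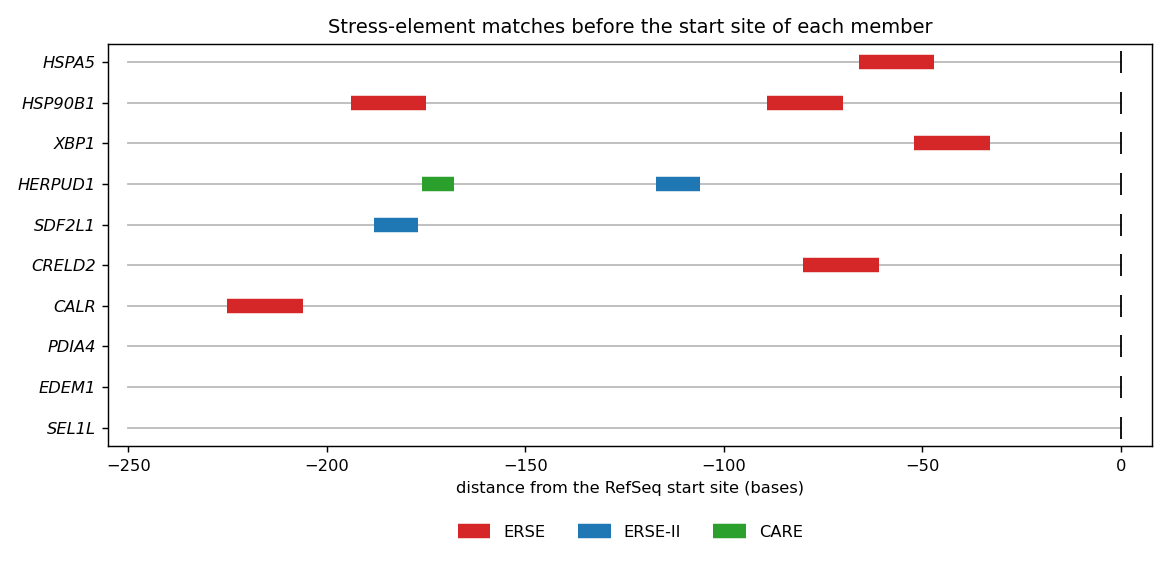
Motif matches in the 250 bases before the start site of each member; the x axis is the distance from the RefSeq start site in bases and the coloured blocks are matches on either strand. Of the 10 members, 7 hold an ERSE or ERSE-II match, among them HSP90B1, CRELD2 and SDF2L1, which no comparison called.

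The recovered libraries held between 26435568 and 32085626 reads, and the deposited values are reads divided by a size factor per library, called normalized counts here. Genes whose mean was 10 or more, 15230 in all, entered a limma fit on log2(normalized count + 1), and a gene is said to rise, fall or be called where the Benjamini-Hochberg adjusted p over all of them is at most 0.05. In bulk RNA, fewer cells of a kind and less RNA per cell cannot be told apart. Of the melanoma markers, SOX10 (7900 to 17935 normalized counts), MITF, DCT, S100B, NGFR and AXL were present in every library, whereas MLANA was listed at 0 in all 9, where genes that most cells use are at 0 too, and TYR and PMEL were at most 2.1 and 36.8. The epithelial, leukocyte and endothelial markers CDH1, EPCAM, CD3E, PTPRC, CDH5 and PECAM1 stayed at or below 11.8. Of the same lists, KRT5 and VWF reached 24.2 and 21, while KRT14 lay between 224.1 and 365 and LYZ between 73.8 and 151.5. SOX10 fell with both compounds against DMSO, by 0.79 on the log2 scale with VHL-r (limma adjusted p = 3.14e-09) and by 1.06 with R4VPL3-1 (limma adjusted p = 1.56e-11), and it was lower by log2 -0.28 in R4VPL3-1 than in VHL-r (limma adjusted p = 0.00951). MITF fell with VHL-r (-0.71, limma adjusted p = 4.02e-05) and R4VPL3-1 (-0.77, limma adjusted p = 9.87e-06) and was not called between them (-0.064, limma adjusted p = 0.93). The part of these falls in the results on the members was not tested. VHL-r and R4VPL3-1 were both compared with the same 3 DMSO libraries, so the 2 comparisons are not independent.

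All 10 members passed the filter on low values. In VHL-r against DMSO, 4 of them rose, where 10.3% of all tested genes did, and none fell, where 9.51% of all genes did. In R4VPL3-1 against DMSO, 4 rose, where 13.1% of all genes did, and none fell, where 11.8% did. Between the compounds, 2 members were higher in R4VPL3-1 than in VHL-r, where 1.14% of all genes were, and none was lower, where 0.729% of all genes were. At an unadjusted p under 0.05 the members lower were 0 in VHL-r against DMSO, 1 in R4VPL3-1 against DMSO (EDEM1) and 0 between the compounds, and edgeR and DESeq2 on the recovered reads called 0 lower in each. The median log2 fold change of the 10 was 0.09 for VHL-r, 0.086 for R4VPL3-1 and -0.019 between the compounds, and over all tested genes it was -0.0045, -0.0063 and -0.0056.

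Sorted by these calls, HSPA5 and CALR rose with both compounds and were not called between them. HERPUD1 rose with both and further with R4VPL3-1. XBP1 was the only member that rose with R4VPL3-1, was not called with VHL-r and was also called between the compounds. SEL1L was called with VHL-r alone, and HSP90B1, PDIA4, SDF2L1, CRELD2 and EDEM1 in no comparison.

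**Figure D2:**
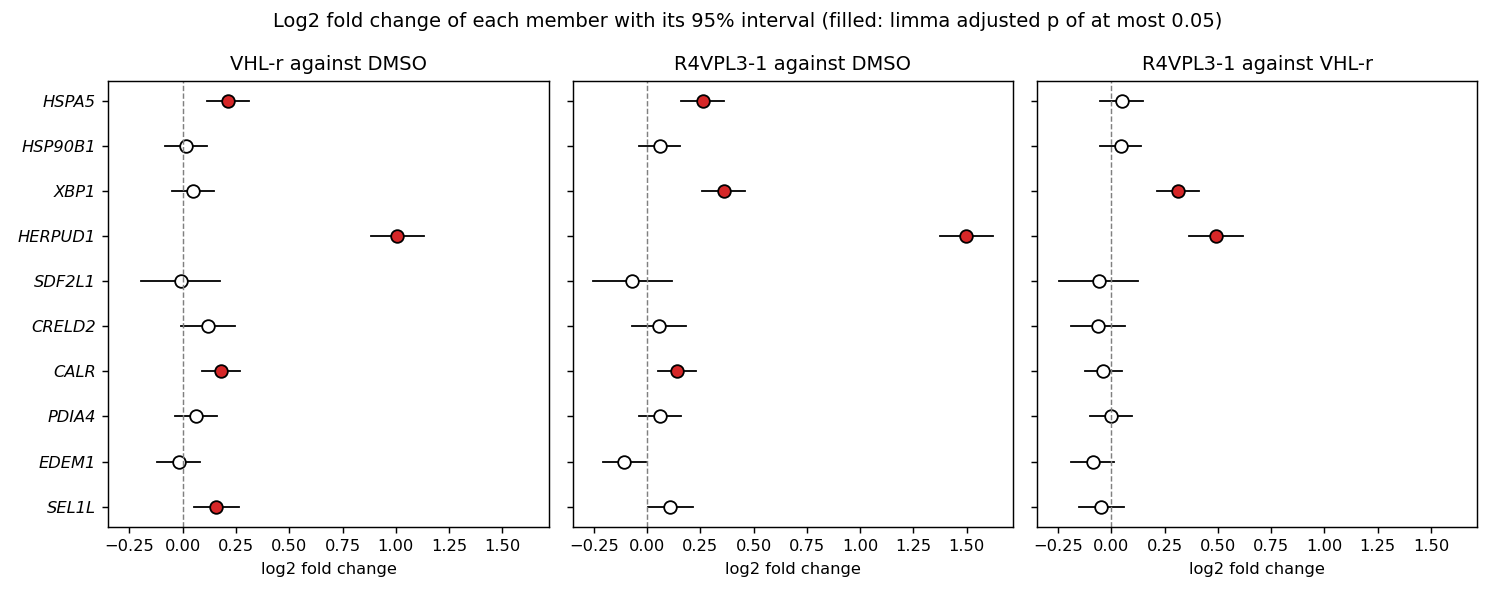
Log2 fold change of each member (x axis, log2 scale) in the 3 comparisons, with points for the limma estimate, bars for its 95% interval and filled points for an adjusted p of at most 0.05. HERPUD1 stands at 1.01 and 1.50 against DMSO and 0.49 between the compounds, and XBP1 is filled only in the 2 comparisons that involve R4VPL3-1.

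HERPUD1 (ENSG00000051108, chromosome 16 of GRCh38 from 56932142 to 56944864, plus strand) encodes a membrane protein that gathers the degradation complex around the ligase SYVN1 and is itself short-lived. It was at 1326.7, 1301.6 and 1420.7 normalized counts in DMSO replicates 1, 2 and 3, at 2530.8, 2658.7 and 2965.1 in VHL-r, and at 4067.4, 3719.9 and 3663.5 in R4VPL3-1. The 3 treatments formed 3 separate bands without overlap, with VHL-r between the others. The log2 fold change was 1.01 for VHL-r (standard error 0.06, limma adjusted p = 1.45e-10) and 1.50 for R4VPL3-1 (limma adjusted p = 1.2e-13), or 2.01-fold and 2.83-fold. HERPUD1 was 1.41-fold higher in R4VPL3-1 than in VHL-r (log2 0.49, 95% interval 0.37 to 0.62, limma adjusted p = 2.36e-05). In R4VPL3-1 against DMSO, 1.50% of all 15230 genes had an absolute log2 fold change at least as large as that of HERPUD1, while for XBP1, HSPA5 and CALR this share was 22%, 30.4% and 49.2%.

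XBP1 (ENSG00000100219, chromosome 22 from 28794555 to 28800597, minus strand), the transcription factor downstream of IRE1, was at 1789.8, 1822.1 and 1777.7 normalized counts in DMSO and at 1818.3, 1850.9 and 1903 in VHL-r, ranges that overlap. In R4VPL3-1 it was at 2306.3, 2364.9 and 2247.2, above all 6 other libraries. The R4VPL3-1 libraries thus stood apart and the VHL-r libraries did not. Against DMSO the rise was 1.28-fold with R4VPL3-1 (log2 0.36, 95% interval 0.26 to 0.46, limma adjusted p = 7.44e-06). With VHL-r the log2 fold change was 0.048 (95% interval -0.052 to 0.15, limma adjusted p = 0.558), which allows a change of up to 1.11-fold. The difference between the compounds was itself called, at log2 0.31 (95% interval 0.21 to 0.41, limma adjusted p = 0.000388).

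**Figure D3:**
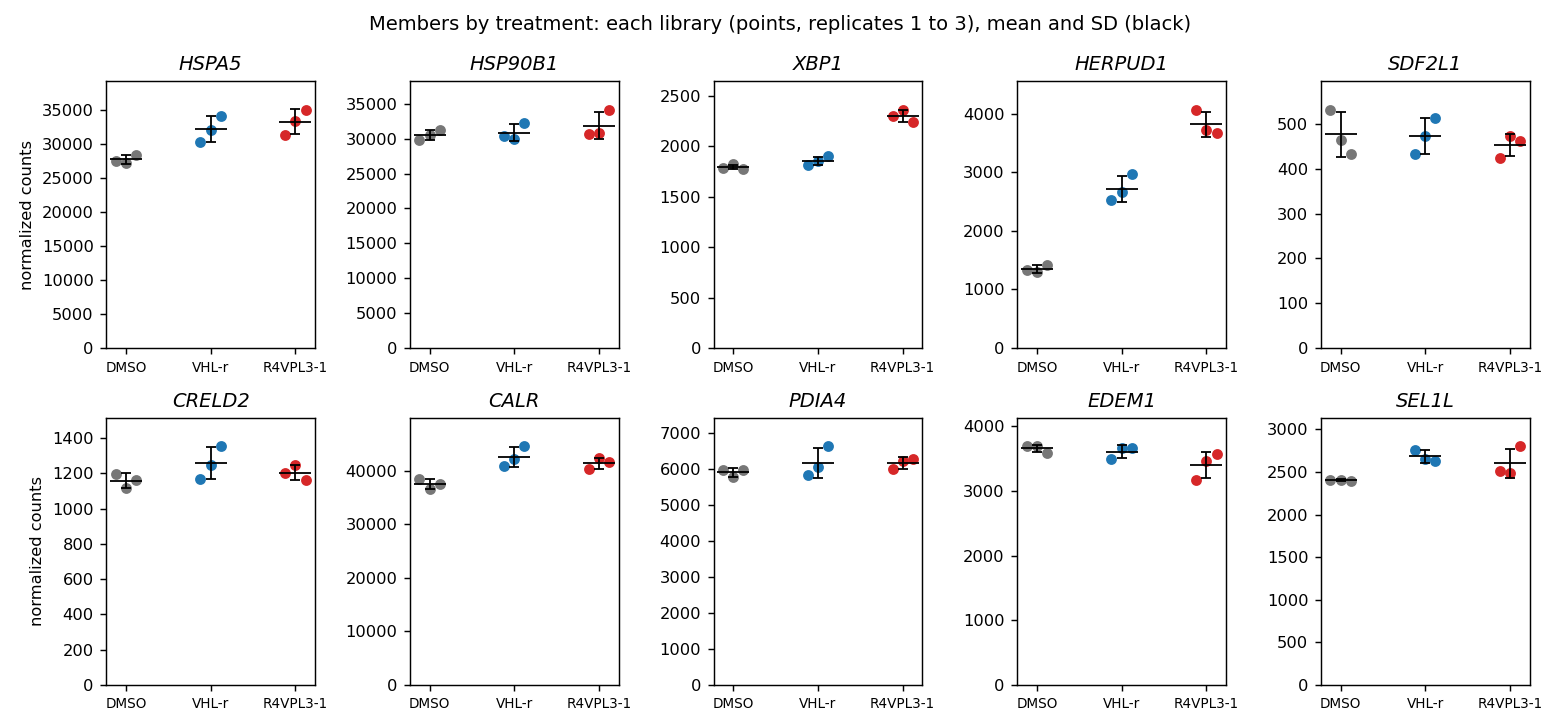
Normalized counts (y axis, from 0, own scale per gene) of the 10 members in each of the 9 libraries by treatment; points are libraries, black bars the mean and SD of 3. HERPUD1 shows 3 separate bands, XBP1 is raised only in R4VPL3-1, and HSP90B1, SDF2L1 and CRELD2 overlap throughout.

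Of the chaperones, HSPA5 and CALR rose by a similar small factor with each compound. HSPA5 (ENSG00000044574, chromosome 9 from 125234853 to 125241382, minus strand), which also restrains the 3 stress sensors, was at 27495.2, 27207.4 and 28382.5 normalized counts in DMSO, at 30266.6, 32051.6 and 34044 in VHL-r, and at 31295.2, 33341.1 and 34996.2 in R4VPL3-1. Every treated library lay above every DMSO library, while the ranges of the compounds overlapped. The rise was 1.16-fold with VHL-r (log2 0.21, limma adjusted p = 0.00293) and 1.20-fold with R4VPL3-1 (log2 0.26, limma adjusted p = 0.000337). The difference between the compounds was 0.048 on the log2 scale with a 95% interval from -0.052 to 0.15, so a difference above 1.11-fold lies outside it.

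CALR (ENSG00000179218, chromosome 19 from 12938578 to 12944489, plus strand), a calcium-binding chaperone of glycoproteins, was at 38463.7, 36540.2 and 37580.1 normalized counts in DMSO, at 40881.2, 42148.6 and 44536.1 in VHL-r, and at 40269.4, 42306.1 and 41626.3 in R4VPL3-1. Again the treated libraries lay above the controls and overlapped each other. The log2 fold change was 0.18 with VHL-r (limma adjusted p = 0.00404) and 0.14 with R4VPL3-1 (limma adjusted p = 0.0171), and -0.038 between them (95% interval -0.13 to 0.05). Its R4VPL3-1 call was lost without DMSO replicate 2 (limma adjusted p = 0.101) or R4VPL3-1 replicate 2 (limma adjusted p = 0.0779), with log2 fold changes of 0.12 and 0.13; over its 20 alternatives the adjusted p ran from 0.00592 to 0.101.

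HSP90B1 (ENSG00000166598), the Hsp90 of the endoplasmic reticulum, was not called in any comparison. It was at 29748.1, 30529.9 and 31282.7 normalized counts in DMSO, at 30380.7, 29999 and 32213.7 in VHL-r, and at 30657.5, 30772.2 and 34150.5 in R4VPL3-1, with overlapping ranges. Its log2 fold change of 0.06 with R4VPL3-1 had a 95% interval from -0.036 to 0.16 (limma adjusted p = 0.387). PDIA4 (ENSG00000155660), a disulfide isomerase, averaged 5905 ± 114.5, 6172 ± 413.5 and 6166 ± 155.4 normalized counts (SD, n = 3) in DMSO, VHL-r and R4VPL3-1, and its log2 fold change was 0.062 with either compound (limma adjusted p = 0.422 for VHL-r and 0.383 for R4VPL3-1). All 3 PDIA4 values of R4VPL3-1, from 5989 to 6280, lay above the DMSO values, by a gap smaller than the spread within each group.

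Also without a call were SDF2L1 and CRELD2, partners in folding that respond strongly to classical stressors. SDF2L1 (ENSG00000128228), a subunit that works with HSPA5, was at 532.1, 465.4 and 433 normalized counts in DMSO, at 432.3, 472.7 and 514.2 in VHL-r, and at 424.9, 472.6 and 462.5 in R4VPL3-1. CRELD2 (ENSG00000184164), a disulfide isomerase-like protein, was at 1199.5, 1114.7 and 1160.1 in DMSO, at 1170.8, 1250 and 1354 in VHL-r, and at 1204.5, 1246.6 and 1160.5 in R4VPL3-1. Both genes overlapped among all 3 treatments. The 95% intervals of the log2 fold change in R4VPL3-1 against DMSO were -0.26 to 0.12 for SDF2L1 and -0.072 to 0.18 for CRELD2, so at these spreads rises above 1.09-fold and 1.14-fold lie outside them.

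The degradation genes other than HERPUD1 moved little. SEL1L (ENSG00000071537), the adaptor of the SYVN1 ligase, was at 2409.1, 2410.4 and 2397.2 normalized counts in DMSO, at 2764, 2655.6 and 2628.2 in VHL-r, and at 2513.6, 2485.3 and 2801.7 in R4VPL3-1. All 6 treated libraries lay above the DMSO libraries, whose SD was 0.3% of their mean. In VHL-r and R4VPL3-1 the SD was 2.68% and 6.73% of the mean, so 3 close DMSO values do not show how stable the gene is. SEL1L was called with VHL-r (log2 0.16, limma adjusted p = 0.034) and not with R4VPL3-1 (log2 0.11, limma adjusted p = 0.127), but the difference between the compounds was -0.047 (95% interval -0.15 to 0.06, limma adjusted p = 0.885), so no difference in response was shown. The VHL-r call was lost without a filter on low values (limma adjusted p = 0.0636) and without any 1 of DMSO replicates 1, 2 and 3 or VHL-r replicates 1 and 2 (limma adjusted p = 0.0751, 0.0868, 0.0792, 0.119 and 0.0809), over a range of 0.0136 to 0.119 in 20 alternatives. EDEM1 (ENSG00000134109), a lectin-like protein that marks misfolded glycoproteins for removal, was at 3688.5, 3688.5 and 3591.8 in DMSO, at 3490.5, 3668.2 and 3667.7 in VHL-r, and at 3169.1, 3463.2 and 3566.1 in R4VPL3-1. Its R4VPL3-1 values lay below all DMSO values, by a gap smaller than the SD of either group (206 in R4VPL3-1 and 55.8 in DMSO). The log2 fold change of EDEM1 in R4VPL3-1 against DMSO was -0.11 and was not called (limma adjusted p = 0.121). It was called without R4VPL3-1 replicate 3 (-0.14, limma adjusted p = 0.0454, the lowest over its alternatives, of which the highest was 0.513).

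Levels of different genes were compared per kb of the GENCODE canonical transcript. In DMSO the order of the mean normalized counts per kb was CALR (19741), HSP90B1 (10971), HSPA5 (7063), PDIA4 (2134), XBP1 (1003), CRELD2 (811), EDEM1 (598.1), SDF2L1 (577.9), HERPUD1 (473.1) and SEL1L (303.8). EDEM1 and SDF2L1 did not differ beyond their spread, with SDs of 9.1 and 61.2. HERPUD1, second from the bottom of this level scale in DMSO, reached 952.8 ± 78.2 per kb in VHL-r. CRELD2 stood at 881.2 ± 64.4 there, and the SD ranges of these genes overlapped. In R4VPL3-1, HERPUD1 stood at 1338 ± 76.7 per kb (SD, n = 3), next to XBP1 at 1288 ± 32.9, and these did not differ beyond their spread. The chaperones thus kept the top 4 places in all 3 treatments while HERPUD1 changed its place. Of the transcripts, HSPA5 shared 2.28% and HSP90B1 1.19% of their 100-base windows with other genes, and the other 8 shared 0.

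The members were set beside wider lists of the same pathway. Of 26 tested ER chaperones and disulfide isomerases, 6 rose with VHL-r, where 10.3% of all genes did, and 6 with R4VPL3-1, where 13.1% did, and 0 fell with either, where 9.51% and 11.8% of all genes did. At an unadjusted p under 0.05, 0 of the 26 were lower with either compound, and edgeR and DESeq2 called 0 lower. These genes had median log2 fold changes over the list of 0.069 and 0.066. DNAJB9, a co-chaperone that returns HSPA5 to IRE1, was at 415.9, 421.1 and 443.1 normalized counts in DMSO, at 718.5, 666 and 717 in VHL-r, and at 1131.7, 1092.4 and 1168 in R4VPL3-1. It followed the 3-band pattern of HERPUD1, with log2 fold changes of 0.71 for VHL-r (limma adjusted p = 8.42e-08), 1.40 for R4VPL3-1 (limma adjusted p = 1.34e-12) and 0.69 between the compounds (limma adjusted p = 7.34e-07), and it was the only one of the 26 called between them. DNAJC3, another HSPA5 co-chaperone, and HYOU1, its nucleotide exchange factor, rose with both compounds, at log2 0.29 and 0.17 for DNAJC3 and 0.14 and 0.13 for HYOU1. ERO1B, an oxidase that recharges disulfide isomerases, was called with VHL-r alone (0.27), and PDIA5 with R4VPL3-1 alone (0.29), though neither was called between the compounds.

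Of 25 tested ER-associated degradation genes, 3 rose with each compound, a share near the 10.3% and 13.1% of all genes that did. None of the 25 was called lower by limma, edgeR or DESeq2, and at an unadjusted p under 0.05, 1 was lower with VHL-r and 2 with R4VPL3-1. Between the compounds 1 was called, HERPUD1, where 1.14% of all genes were higher. HERPUD2, the paralog of HERPUD1, rose with VHL-r (log2 0.33, limma adjusted p = 0.000445) and R4VPL3-1 (0.30, limma adjusted p = 0.000801), and its difference between them was -0.027. UFD1, which works with the extraction ATPase VCP, was called with R4VPL3-1 (0.13, limma adjusted p = 0.0447) and not with VHL-r (0.102, limma adjusted p = 0.141). Its difference between the compounds was 0.028 (limma adjusted p = 0.929), so no difference in response was shown.

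Of 16 tested sensors and transducers, 3 rose and 1 fell with VHL-r, and 3 rose with R4VPL3-1, against the same shares of all genes, and 1, XBP1, was called between the compounds. ERN1 and EIF2AK3 rose with both compounds. ERN1 was at 175.3, 160.4 and 201.8 normalized counts in DMSO, at 498.4, 461.1 and 521.3 in VHL-r, and at 540.6, 497.4 and 518.2 in R4VPL3-1. The log2 rise of ERN1 was 1.46 with VHL-r (limma adjusted p = 4.16e-10) and 1.53 with R4VPL3-1 (limma adjusted p = 9.12e-11), and its difference between the compounds was 0.073 with a standard error of 0.093 (limma adjusted p = 0.906). EIF2AK3 rose by 0.43 and 0.52 on the log2 scale (limma adjusted p = 2.76e-05 and 1.84e-06). XBP1 mRNA, the substrate of the ERN1 product, was thus called in R4VPL3-1 and not in VHL-r, whereas ERN1 mRNA was called in both. WFS1 (0.32) rose and TRAF2 (-0.27) fell with VHL-r, and neither was called with R4VPL3-1 or between the compounds.

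The next list holds translocation, signal peptide and coat genes taken as induced by XBP1, which was not tested here. None of its 28 tested genes was called by limma, edgeR or DESeq2 in any of the 3 comparisons. Both compounds were given for 2 h, and no later time was measured. Of all genes, 10.3% rose and 9.51% fell with VHL-r, and 13.1% rose and 11.8% fell with R4VPL3-1. Between the compounds 1.14% were higher and 0.729% lower, so 0 of 28 is near the background there. The log2 fold changes of the 28 ran from -0.11 to 0.077 in R4VPL3-1 against DMSO, with 0 higher and 2 lower at an unadjusted p under 0.05, and from -0.1 to 0.056 in VHL-r against DMSO, with 0 higher and 1 lower. Between the compounds 0 passed that level in either direction. Over these 4 lists together, members included, 12 of 95 tested genes (12.6%) rose with each compound, which is near the 10.3% of all genes for VHL-r and the 13.1% for R4VPL3-1. Of the 95, 1 fell with VHL-r and 0 with R4VPL3-1 by limma, against 9.51% and 11.8% of all genes. Between the compounds 3 of the 95 (3.16%) were higher in R4VPL3-1, against 1.14% of all genes, and these were HERPUD1, XBP1 and DNAJB9.

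Genes listed under the PERK-ATF4 arm do not make chaperones but adjust translation, amino acid supply and survival. Neither PERK activity nor eIF2 alpha phosphorylation was measured, and what moved these genes was not tested. Of 14 tested genes, 5 rose and 2 fell with VHL-r (10.3% and 9.51% of all genes), 10 rose and 1 fell with R4VPL3-1 (13.1% and 11.8%), and 8 were higher and 0 lower in the R4VPL3-1 than in the VHL-r libraries (1.14% and 0.729%). None was lower between the compounds at an unadjusted p under 0.05 or by edgeR or DESeq2. The median log2 difference between the compounds was 0.46. TRIB3, CEBPG and VLDLR were called in no comparison, with log2 fold changes of -0.156, 0.106 and 0.208 in R4VPL3-1 against DMSO. DDIT3, which encodes the stress factor CHOP, was at 289.7, 248.9 and 284.9 normalized counts in DMSO, at 366.3, 382.4 and 402.5 in VHL-r, and at 1492.1, 1271.5 and 959.2 in R4VPL3-1. The log2 fold change of DDIT3 was 0.48 with VHL-r (limma adjusted p = 0.00392) and 2.15 with R4VPL3-1 (limma adjusted p = 9.8e-12). CHAC1, a glutathione-degrading enzyme, rose by 0.94 and 2.61 on the log2 scale (limma adjusted p = 0.000158 and 7.26e-11). DDIT4, an inhibitor of mTORC1, fell with VHL-r (-0.53, limma adjusted p = 0.00477) and rose with R4VPL3-1 (2.14, limma adjusted p = 7.26e-11). STC2, a secreted glycoprotein, fell with both, at -0.75 and -0.49 (limma adjusted p = 3.81e-05 and 0.00199). SESN2, a stress-induced inhibitor of mTORC1, rose by 1.39 and 1.91, and CTH, which makes cysteine, by 0.76 and 1.42 (limma adjusted p = 2.43e-11 and 7.46e-14 for SESN2, 6.48e-05 and 8.64e-09 for CTH). ATF3, a stress-induced repressor, rose by 1.89 with R4VPL3-1 (limma adjusted p = 1.8e-08). ATF4 itself rose by 0.25 and 0.65 (limma adjusted p = 0.00018 and 2.27e-10). ASNS, CRELD1, TXNDC5, FKBP11 and KDELR2 were listed at 0 in all libraries, and FKBP2, DERL3 and NUPR1 had means under 10, so these 8 were not tested. Some of the genes listed at 0 are ones that most cells use, so a 0 in this table does not show that the RNA was absent.

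**Figure D4:**
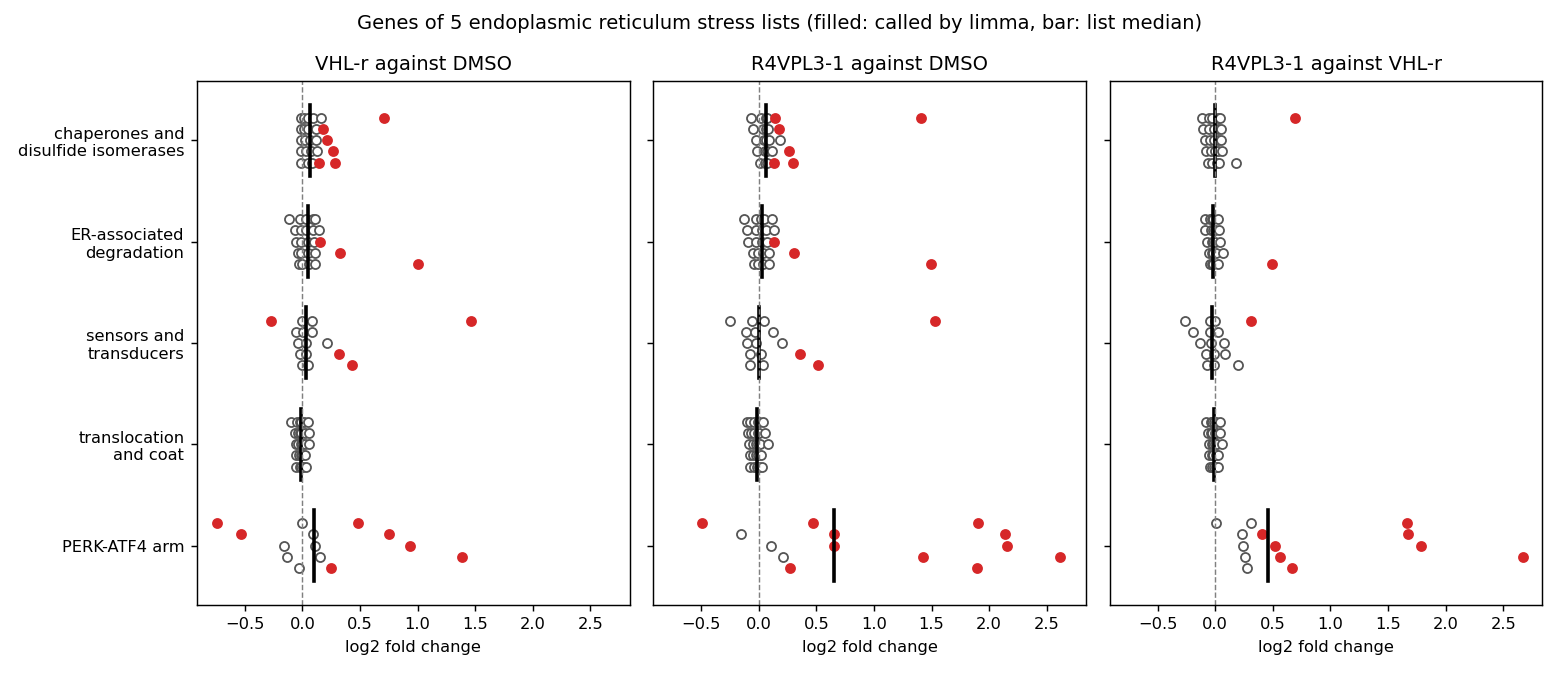
Log2 fold change (x axis) of each tested gene in 5 lists (rows) for the 3 comparisons; filled points were called by limma and black bars are list medians. Most chaperone, degradation and translocation genes lie near 0, with 0 of 28 translocation and coat genes called. Of the 14 genes listed under the PERK-ATF4 arm, 8 are called between the compounds.

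Values of 5 cytosolic heat shock genes were set beside the ER chaperones, since the same kinds of protein fold chains on the other side of the membrane. HSPA1A, the inducible cytosolic Hsp70, averaged 608.5 ± 43.7, 986.6 ± 103.6 and 16154 ± 2458 normalized counts (SD, n = 3) in DMSO, VHL-r and R4VPL3-1, a log2 difference between the compounds of 4.03 (limma adjusted p = 1.83e-17). HSPA1B is its near-identical paralog, and how reads that fit both were counted was not checked, so the level of either alone is uncertain. HSPA8, the constitutive cytosolic Hsp70, and HSP90AA1, a cytosolic Hsp90, were higher by 0.67 and 0.36 in R4VPL3-1 than in VHL-r (limma adjusted p = 3.8e-09 and 6.59e-05). DNAJB1 and HSPH1, cytosolic co-chaperones of Hsp70, were higher by 2.20 and 0.49 (limma adjusted p = 1.14e-13 and 1.16e-06). Their ER counterparts HSPA5 and HSP90B1 differed by 0.048 and 0.045 in the same comparison and were not called. In VHL-r against DMSO, HSPA1A and DNAJB1 rose by 0.69 and 0.65 (limma adjusted p = 6.5e-06 and 4.19e-06), and HSPH1 (0.13, limma adjusted p = 0.0741), HSPA8 (0.096, limma adjusted p = 0.156) and HSP90AA1 (0.068, limma adjusted p = 0.367) were not called.

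The 3 other genes most like each of the members called between the compounds were found by Pearson's r over the 9 libraries on log2(normalized count + 1). For XBP1 these were HSPA1A (r = 0.994), HSPA1B (r = 0.991) and DNAJA1 (r = 0.988). For HERPUD1 they were SESN2 (r = 0.997), TNFSF9 (r = 0.996) and BTG2 (r = 0.995). The 9 points fall into 3 treatments, so these r values describe the group means more than the libraries, and no test was made.

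**Figure D5:**
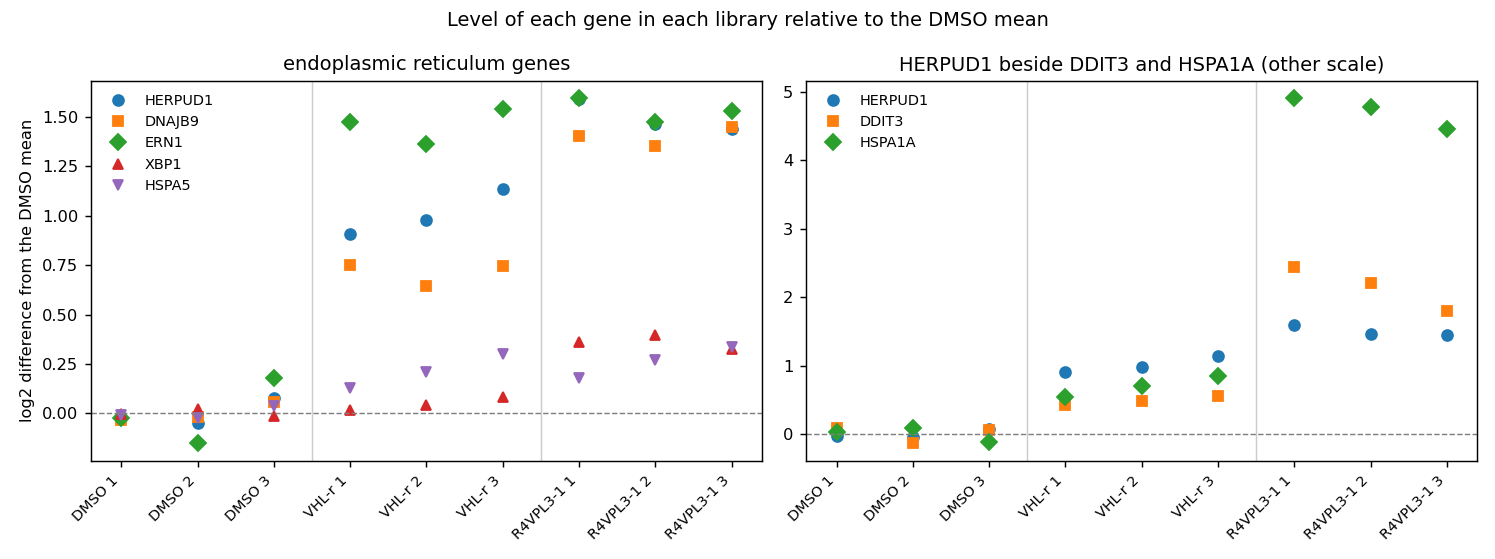
Log2 difference from the DMSO mean (y axis) of named genes in each of the 9 libraries (x axis), with endoplasmic reticulum genes on the left and HERPUD1 beside DDIT3 and HSPA1A on the right, on another scale. ERN1 is about as high in VHL-r as in R4VPL3-1, HERPUD1 and DNAJB9 step up again in R4VPL3-1, and XBP1 leaves the DMSO level only in R4VPL3-1.

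Among the R4VPL3-1 libraries, replicate 1 was the highest and replicate 3 the lowest for HERPUD1, DDIT3, CHAC1, DDIT4 and HSPA1A, but not for HSPA5 and HSP90B1, where replicate 3 was the highest. Leaving out R4VPL3-1 replicate 1 lowered the genes called between the compounds from 285 to 182. In that fit, as in each other one, HERPUD1 and XBP1 remained the 2 members called between the compounds, at log2 differences from 0.44 to 0.56 for HERPUD1 and from 0.29 to 0.33 for XBP1 over the 20 alternatives.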

How the data were processed

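Poly(A) RNA of A375R cells was sequenced from strand-marked libraries made at the same time. Per the methods, the authors aligned reads of 100 bases to GRCh38 with STAR and counted them per Ensembl gene with htseq-count in reverse mode, which uses strand. The deposited values are a signal, reads per gene divided by a DESeq2 (version 1.36.0, per the labels) size factor, which makes libraries comparable but removes any change common to most genes. Dividing by the value of 1 read in each library gave whole reads for 100% of values within 0.1, and size factors from 0.9341 to 1.1012. Counting error was not separated from the spread among libraries. It weighs more on SDF2L1, with a DMSO mean of 476.8 normalized counts, than on CALR, with 37528.

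The main test was limma 3.58.1 (R 4.3.3, trend option) on log2(value + 1), with all 9 libraries in 1 single-factor fit as in the study's design, and was tested on simulated data. Fold changes on this scale understate those of low genes. Alternatives were a pseudocount of 0.1 or 5, testing every gene above 0 or those with means of 50 or more, TMM and upper-quartile rescaling, the robust option, a replicate block, only the 6 libraries compared, the count tests of DESeq2 1.42.0 and edgeR 4.0.16 with recovered reads, and each library left out. With 3 libraries per treatment, the main limma p-values measure the spread within treatments over all 9 of these libraries. For each gene that spread is moderated toward a trend over all genes.

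The members and lists were chosen with earlier results of these data known. Named genes were the members, up to the 4 largest called changes per wider list and comparison, 5 cytosolic heat shock genes, the 3 patterns most like each member called between the compounds, and cell markers. ATF4, HYOU1, TRIB3, CEBPG and VLDLR were named after their values were seen. Gene positions, transcript lengths and shared windows came from GENCODE 44, whose positions equal the deposited ones for all 10 members. Promoters came from RefSeq (GRCh38.p14), with 27305 windows kept, the first listed per symbol of 35116; PDIA4 and XBP1 have more than 1 listed.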

Additional observations from a re-analysis of the deposited data

How the results depend on the processing

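The members called numbered 3 to 4 in VHL-r against DMSO, 3 to 5 in R4VPL3-1 against DMSO and 2 between the compounds over 20 alternatives each, and the 4 wider lists gave 13 to 14, 12 to 13 and 3 calls over 3 alternatives. Of 600 values of single members under the alternatives, 578 kept their direction and side of the threshold, 8 lost a call, 1 gained a call and 13 changed sign. The 8 lost calls were those of SEL1L in VHL-r and CALR in R4VPL3-1 given in the report, and the gained call was that of EDEM1. Every changed sign belonged to a member not called, and 12 of the 13 came from leaving out a library; the cause was not tested. Leaving out 1 library at a time, the log2 fold changes ran from -0.032 to 0.005 for EDEM1 in VHL-r against DMSO, from -0.006 to 0.076 for HSP90B1 between the compounds, from -0.015 to 0.036 for HSP90B1 in VHL-r against DMSO, from -0.04 to 0.053 for PDIA4 between the compounds, from -0.136 to 0.013 for SDF2L1 in R4VPL3-1 against DMSO, from -0.122 to 0.002 for SDF2L1 between the compounds, and from -0.076 to 0.072 for SDF2L1 in VHL-r against DMSO. DESeq2 gave -0.002 for PDIA4 between the compounds. Over all genes, calls between the compounds ran from 182 without R4VPL3-1 replicate 1 (113 higher and 69 lower) to 389 with the replicate block. The replicate numbers were not taken as pairs in the main fit. Deviations of same-numbered libraries correlated between -0.006 and 0.121, and those of other-numbered libraries between -0.148 and 0.098. The block raised the genes called from 3016 to 3451 for VHL-r and from 3792 to 4241 for R4VPL3-1 against DMSO. Between the compounds it raised them from 285 to 389. With the replicate block, 4, 4 and 2 members were called in the 3 comparisons, as without it. TMM and upper-quartile rescaling moved the median of all genes by less than 0.1 on the log2 scale.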
